A study of Homo sapiens with 36 samples.

Results

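Cultures of HK-2 cells were treated with a compound that the labels call only Aa, and the change of the high dose effect between 24 h and 48 h was measured gene by gene. The quantity is an interaction, the difference between high dose and control cultures at 48 h minus the same difference at 24 h. It rested on 12 of the 36 arrays of the series, chosen by compound, dose and time from their titles: 3 of control cultures at 24 h, 3 of high dose cultures at 24 h, 3 of control cultures at 48 h and 3 of high dose cultures at 48 h. The 6 arrays of the low dose of Aa at the same times entered the fit and are given beside the high dose where they bear on it.

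HK-2 is an established line of human kidney proximal tubule epithelium, immortalised with the human papillomavirus genes E6 and E7, the first of which directs p53 to degradation. All cultures were grown in medium with epidermal growth factor, hydrocortisone, insulin, transferrin and selenium and were near confluence when exposure began, and the controls received vehicle. The labels give the doses as hd and ld with no concentration. The 3 cultures of each group are labelled biological replicates. Each array reported 1 log2 level per gene, the mean log2 level of 3 arrays is the level of a group, and a difference of 1 between levels is a change of 2-fold. A level at or under 4 was treated as background. A level belongs to the whole culture, so fewer cells that express a gene and less of its RNA per cell cannot be told apart.

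A cell exposed to a toxic compound answers in stages. Immediate early genes such as FOS and EGR1 encode transcription factors and need no new protein to be induced, stress pathways such as those of NRF2, ATF4 and p53 induce enzymes and inhibitors of the cell cycle, and later stages include secreted factors, changes of cell shape and loss of epithelial traits. In the proximal tubule, which takes up and clears many foreign compounds, such programs accompany injury and repair. Comparing the effect of 1 dose at both times separates genes that responded at 24 h and had returned by 48 h from genes that kept their response and genes that responded only at the later time.

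The cell type markers were read first. All 5 epithelial markers (KRT8, KRT18, KRT19, EPCAM and CDH1) were above 4 on all 12 arrays. Their summed level was 56.7 to 57.9 and 55.8 to 57.7 in the controls at 24 h and 48 h and 52.8 to 54.4 and 53.1 to 55.1 at the high dose. KRT19 (-1.12 and -1.38) and CDH1 (-1.54 and -1.14) were lower at both times, EPCAM was lower at 48 h (-0.49), KRT8 was higher at 48 h (0.72), and KRT18 was lower at 24 h (-0.61) with a called interaction (0.70, adjusted p = 0.0169 in limma). The part of these shifts in the results was not tested. Of 28 proximal tubule genes with a probe set, 8 were above 4 on all 12 arrays, and LRP2, CUBN, SLC34A1, SLC5A2 and SLC22A6, which define the differentiated tubule, were at background on every array. Of the 10 tested, 1 was higher and 6 lower at 24 h, beside 27.4% and 24.0% of all tested genes. At 48 h 2 were higher and 6 lower, beside 30.9% and 35.1%, with SLC7A9 the largest rise (4.24 and 4.45). Of 9 fibroblast markers 4 were above 4 on all 12 arrays. They were DCN, LUM, S100A4 and COL1A1, at 11.41, 9.62, 9.39 and 8.24 in the 24 h controls. So were 3 of 9 distal nephron markers (CLDN16, SCNN1A and AQP3) and 1 of 7 endothelial markers (ESAM). Of 7 leukocyte markers none was above 4 on all 12 arrays, and PTPRC was at background throughout; their summed level was 16.3 to 17.2 in the control cultures at 24 h, 17.2 to 18.3 at the high dose at 24 h, 16.6 to 17.1 in the control cultures at 48 h and 18.9 to 21.6 at the high dose at 48 h, with FCER1G the 1 member above 4 on some arrays. The 3′ minus 5′ difference of ACTB, a sign of RNA quality, was 0.79 ± 0.10 and 0.86 ± 0.22 in the controls at 24 h and 48 h and 1.01 ± 0.33 and 1.25 ± 0.30 at the high dose (SD, n = 3). The part of RNA quality in the results was not tested. Each array had between 10395 and 10557 genes above 4, and replicate arrays correlated at 0.984 to 0.991 across genes.

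Most of the response to the high dose was present at both times, and its change with time was dominated by genes whose effect appeared or grew by 48 h. Of 10972 genes tested, 5631 were called at 24 h (51.3%; 27.4% higher and 24.0% lower) and 7240 at 48 h (66%; 30.9% higher and 35.1% lower), and the effect itself differed between the times for 2276 genes (20.7%), of which 783 (7.14%) moved to a higher and 1493 (13.6%) to a lower effect. A gene was called at a Benjamini-Hochberg adjusted p under 0.05 in limma. The interaction exceeded 2-fold for 342 higher and 685 lower genes. The number of arrays limits the precision. On 18 simulated arrays with independent noise the fit recovered 50% of interactions of 1 log2 unit and 91% of those of 2 units, out of 100 of each. The simulation had no pairing of replicates and far fewer changed genes than the 2276 called here. Its shares are therefore not the recovery in these data.

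The balance between higher and lower calls depended on the scaling of the arrays. As deposited, 34.4% of the called genes were higher, and the median interaction of all tested genes was -0.07. After quantile normalisation 2191 genes were called, 46.6% of them higher, and after centring each array on its median 2123 were called, 49.7% of them higher, with the median moved to 0.04. No gene called both ways changed its sign. Numbers of lower genes are therefore read against that shift. With the replicate number as a block, 4304 genes were called (1700 higher and 2604 lower), and every gene called without the block was among them.

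The change lay mainly in the treated cultures. Between 24 h and 48 h the control cultures differed for 142 genes (1.29%) and the high dose cultures for 3339 (30.4%), 1095 higher (9.98%) and 2244 lower (20.5%). The control count depended on single arrays. It was 84, 41 and 17 without replicates 1, 2 and 3 of the 24 h controls, and 19, 25 and 550 without replicates 1, 2 and 3 of the 48 h controls. With the replicate block 1792 genes were called in the controls and 5014 at the high dose. An interaction can therefore hold a change of the control cultures. Its 2 parts are given below for described genes whose control change was called and for others where it was a large part. These calls of single genes are from the fit without the block, so a part not called is not shown to be absent.

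The calls at 24 h, at 48 h and of the interaction were combined into programs. A late gene was called at 48 h and not at 24 h, a growing gene at both times with a larger effect at 48 h, a waning gene at both times with a smaller effect at 48 h, an early gene at 24 h and not at 48 h, and a reversed gene at both times in opposite directions, each with the interaction called. A sustained gene was called at both times in 1 direction with the interaction not called, which does not show that its effects were equal. There were 990 late genes (9.02% of those tested, 3.14% higher and 5.88% lower), 730 growing genes (6.65%, 2.55% and 4.1%) and 3601 sustained genes (32.8%, 17% and 15.9%). A further 115 were waning (1.05%, 0.838% and 0.21%), 310 early (2.83%, 1.98% and 0.848%) and 118 reversed (1.08%, 0.31% and 0.766% by their direction at 48 h). The time course of 1686 genes called at 48 h only (15.4%, 7.12% higher and 8.25% lower) and 757 called at 24 h only (6.9%, 4.27% and 2.63%) is unresolved, since their interaction was not called, and 13 genes had a called interaction alone (0.118%, 0.0729% and 0.0456%). With the replicate block 267 of the 345 late higher and 487 of the 645 late lower genes kept that class. The late genes then numbered 1457, and the unresolved ones 944 at 48 h only and 592 at 24 h only.

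**Figure D1:**
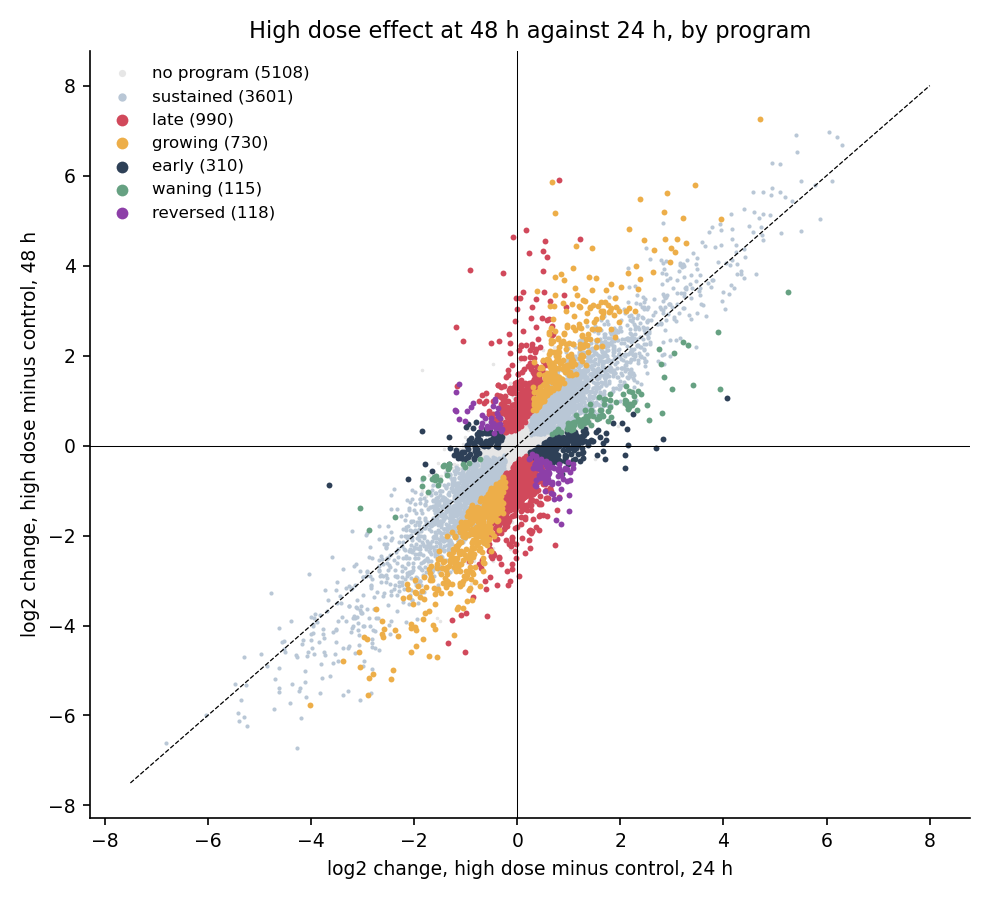
Each point is 1 of the 10972 tested genes, with the log2 change of high dose minus control at 24 h on the horizontal axis and at 48 h on the vertical axis, coloured by program; the dashed line marks equal change. The 3601 sustained genes lie along the dashed line, the 990 late genes lie along the vertical axis, and the 310 early genes lie along the horizontal axis.

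The late genes with the largest interactions, with values under 4 set to 4, included SLN, FOS, FOSB and ZNF143-AS1. SLN, sarcolipin, a small regulator of the calcium pump, stood at 8.33, 7.91 and 9.11 against 7.73, 6.98 and 7.92 at 24 h and at 5.15, 4.53 and 7.12 against 9.33, 8.90 and 10.32 at 48 h. The groups overlapped at 24 h and were apart at 48 h. Its interaction of 4.82 ± 0.82 (adjusted p = 0.00163) was made of a control fall by 2.85 (adjusted p = 0.0271) and a high dose rise of 1.97 (adjusted p = 0.0186), and its effect of -0.91 at 24 h was called with the block (adjusted p = 0.0257). ZNF143-AS1, an antisense RNA of ZNF143, was at background on the 9 other arrays and at 7.14, 7.77 and 8.17 at the high dose at 48 h, at least 12.9-fold above control (interaction 4.72 ± 0.57, 3.69 with values under 4 set to 4, adjusted p = 0.00015).

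Transcription factors of the AP-1 family, dimers of FOS and JUN proteins that bind genes of growth and stress, were also late. FOS stood at 3.60, 4.44 and 4.46 in the control cultures at 24 h, 4.81, 4.57 and 3.66 at the high dose at 24 h, 4.12, 3.54 and 4.05 in the control cultures at 48 h and 8.85, 8.14 and 9.12 at the high dose at 48 h. The 3 high dose arrays at 48 h were far above the other 9, which overlapped. Its effect was 0.18 ± 0.36 at 24 h and 4.80 ± 0.36 at 48 h, an interaction of 4.62 ± 0.50 (SE, n = 3 per group; adjusted p = 6.8e-05). FOSB was at background on all 6 control arrays and all 3 high dose arrays at 24 h and reached 8.27, 7.81 and 8.37 at the high dose at 48 h, at least 17.7-fold higher than the controls. Its interaction was 4.15 with values under 4 set to 4, and its effect at 24 h was called only when the 12 arrays were fitted alone (adjusted p = 0.0297).

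FOSL1, a further AP-1 member, differed in the parts of its interaction of 3.30 ± 0.87 (adjusted p = 0.0157). Its level was 6.05, 5.86 and 7.54 and then 4.56, 3.18 and 5.97 in the control cultures, and 6.95, 5.65 and 6.77 and then 7.94, 7.48 and 8.10 at the high dose. The control level was 1.91 lower at 48 h than at 24 h and the high dose level 1.38 higher. Neither was called on its own without the block (adjusted p = 0.127 and 0.102). In every replicate number the control level fell and the high dose level rose. ATF3, an AP-1 partner that many stresses induce, was already high at 24 h. It stood at 4.31, 4.36 and 5.14 against 10.23, 9.85 and 9.92 at 24 h and at 5.32, 4.35 and 5.40 against 11.71, 11.67 and 12.39 at 48 h, with no overlap between groups. Its change of effect of 1.5 ± 0.57 was not called (adjusted p = 0.0717) and was called with the replicate block (0.0454), in the 12 arrays alone (0.0382) and over the mean of its probe sets (0.0161).

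Among 27 tested immediate early and AP-1 genes, 11 moved to a higher effect and 1 to a lower one (14 and 2 with the block), against 7.14% and 13.6% of all tested genes, and the median effect was 0.47 at 24 h and 1.19 at 48 h. The counts of the lists below stand beside these same shares, 20.7% in either direction. Counts with the block stand beside 1700 higher and 2604 lower of all 10972 tested genes. Their median change with time was -0.11 in the control cultures and 0.47 at the high dose. By program 6 were late higher, 4 growing higher and 8 sustained higher. CCN2, a matricellular protein counted with them, went from an effect of -0.18 ± 0.28 to 1.68 ± 0.28 (interaction adjusted p = 0.00521).

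EGR1, the zinc finger factor of the same class, also moved to a higher effect. It did so from a lower level than control at 24 h, and so fell under the early program. It stood at 11.35, 11.53 and 11.55 in the control cultures and 9.72, 9.88 and 9.27 at the high dose at 24 h, and at 11.23, 10.65 and 11.34 against 11.18, 11.44 and 11.59 at 48 h. The groups were apart at 24 h and overlapped at 48 h. The effect was -1.85 ± 0.25 and then 0.33 ± 0.25, an interaction of 2.18 ± 0.35 (adjusted p = 0.00111). The 1 other probe set of EGR1 did not give the same call, and over the mean of both the effect at 48 h was called (0.55, adjusted p = 0.0273). At the low dose its effect was -1.48 at 24 h and -0.84 at 48 h, and the change with time differed between doses by 1.54 ± 0.35 (adjusted p = 0.0263).

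**Figure D2:**
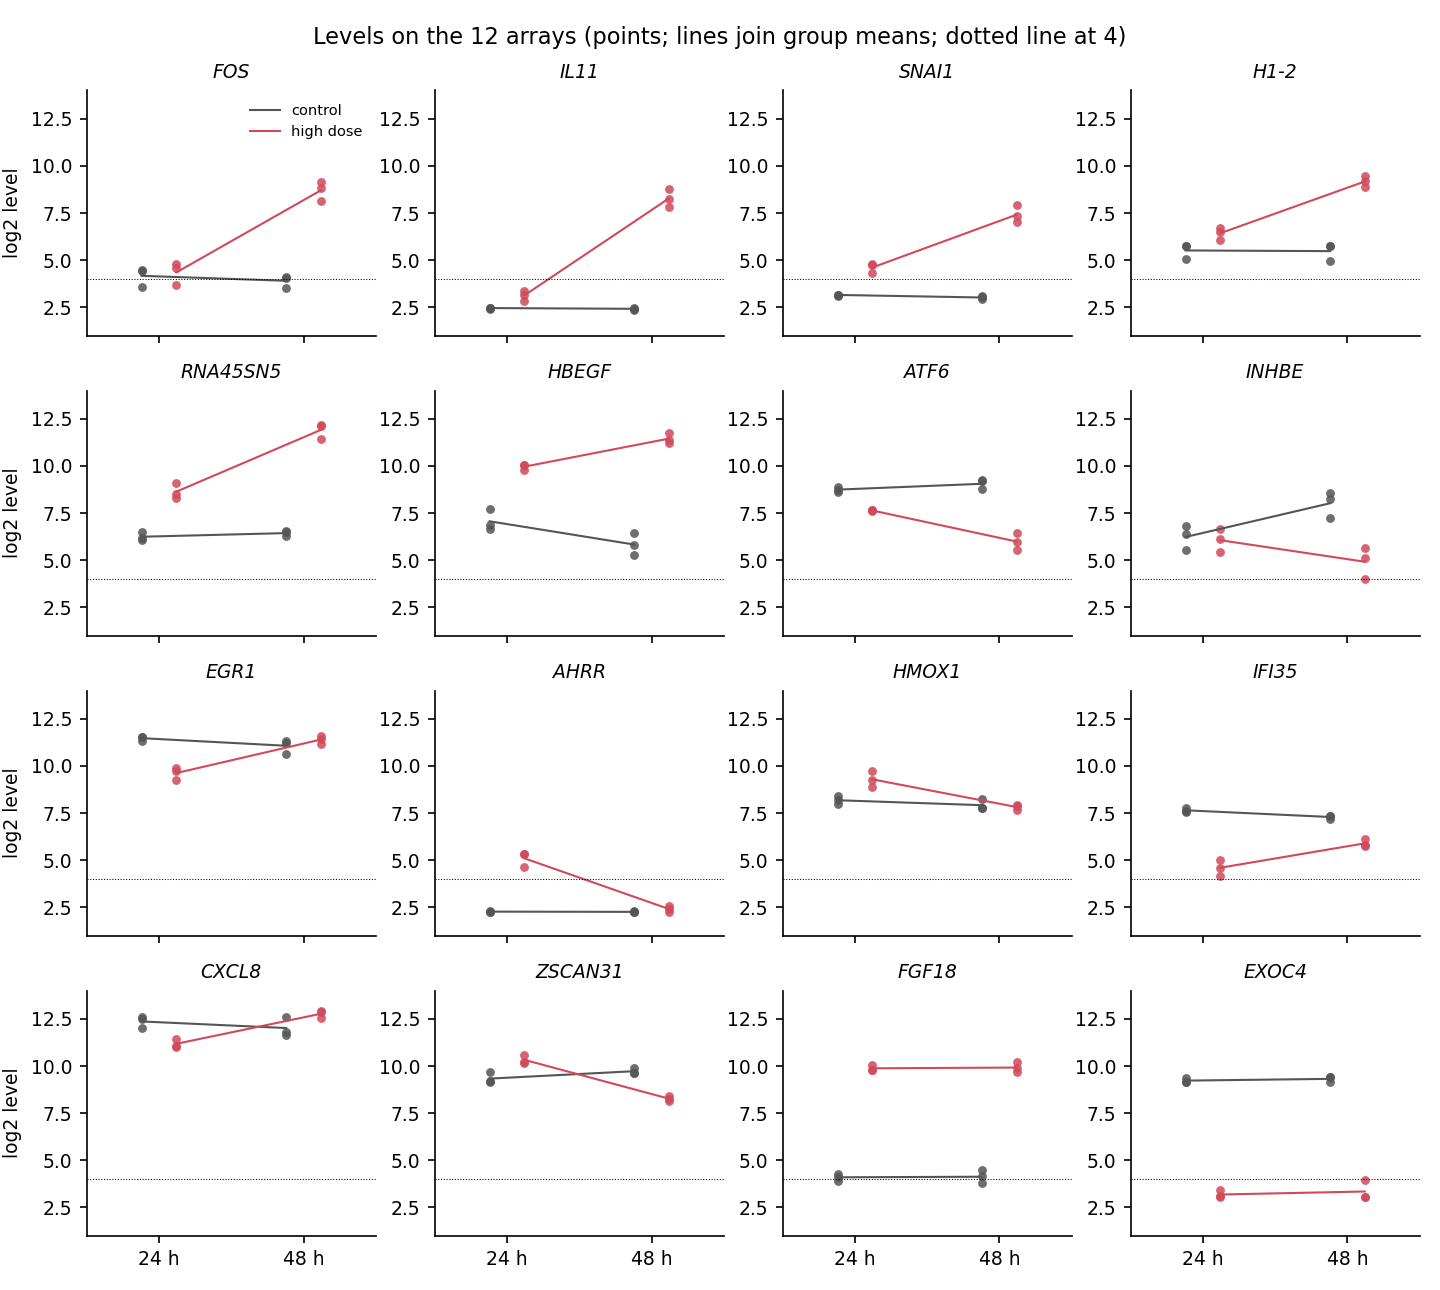
Log2 levels of 16 genes on the 12 arrays, grey for control and red for high dose cultures at 24 h and 48 h; each point is 1 array, lines join the group means and the dotted line marks background at 4. FOS and IL11 were high on the 3 high dose arrays at 48 h only, AHRR on those at 24 h only, and FGF18 and EXOC4 were apart from control at both times.

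The growing program held several secreted factors. IL11, a cytokine of the interleukin-6 family, was at background on all 6 control arrays and on the 3 high dose arrays at 24 h (2.85, 3.37 and 3.16) and reached 8.23, 7.82 and 8.77 at the high dose at 48 h, at least 19.3-fold above the controls. Its interaction was 5.19 ± 0.34 as deposited (adjusted p = 1.7e-06) and 4.27 with values under 4 set to 4, and with that setting it had no effect at 24 h. The effect at 24 h was also not called over the mean of probe sets (0.0759), after centring (0.0578) or quantile normalisation (0.309), with no filter (0.0643), without replicates 1, 2 or 3 of the 24 h controls (adjusted p = 0.0608, 0.0734 and 0.0591) or replicates 2 or 3 of the 24 h high dose cultures (0.111 and 0.0685). LIF, of the same cytokine family, had an effect of 0.75 ± 0.18 and then 1.89 ± 0.18 (interaction 1.14 ± 0.26, adjusted p = 0.00656).

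SNAI1 encodes Snail, a repressor of E-cadherin transcription. It was at background on all 6 control arrays, at 4.79, 4.31 and 4.72 at the high dose at 24 h and at 7.32, 7.02 and 7.91 at 48 h, so that the 3 sets did not overlap. It was at least 1.52-fold above control at 24 h and at least 10.7-fold at 48 h, an interaction of 2.95 ± 0.27 (adjusted p = 1.4e-05). HBEGF, a ligand of the epidermal growth factor receptor, stood at 6.63, 6.84 and 7.72 against 10.06, 9.79 and 10.03 at 24 h and at 5.26, 5.81 and 6.42 against 11.36, 11.23 and 11.76 at 48 h. The high dose arrays were above every control array at both times. The effect was 2.9 ± 0.36 and then 5.62 ± 0.36 (interaction 2.72 ± 0.51, adjusted p = 0.00249). The control level was 1.23 lower at 48 h, which was not called without the block (adjusted p = 0.0926), though it fell in every replicate number. The high dose level rose by 1.49 (adjusted p = 0.00614).

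Of 17 tested cytokines, chemokines and feedback genes of NF-kB, 3 moved to a higher and 1 to a lower effect, and 8 and 3 did with the replicate block. For this and the next lists, 7.14% of all tested genes moved higher and 13.6% lower. Of 30 glycolysis and hypoxia genes 6 moved higher and 1 lower. Among these were ADM, the vasodilator peptide adrenomedullin, with effects of 2.17 ± 0.39 and 4.82 ± 0.39 (interaction adjusted p = 0.00422), and ANGPTL4, a secreted inhibitor of lipoprotein lipase, with effects of 2.84 ± 0.43 and 5.18 ± 0.43 (adjusted p = 0.0144) and a level at 48 h at least 21-fold above control. Of 22 kidney injury genes 6 moved higher and none lower, and 9 and 2 did with the block. SOX9, a transcription factor of regenerating tubules, had effects of -1.19 ± 0.51 and 2.64 ± 0.51 (interaction 3.84 ± 0.73, adjusted p = 0.00277). The high dose level rose by 2.76 (adjusted p = 0.00121), and the control change of -1.08 was not called (adjusted p = 0.302). Its effect at 24 h was called without replicate 1 of the 24 h high dose cultures (-1.54, adjusted p = 0.0372), with the block (0.0208), in all 36 arrays (0.0292), in the 12 arrays alone (0.0102), after centring (0.0402) and over the mean of its probe sets (0.00999), which would make it reversed. HAVCR1, the injury marker KIM-1, was lower at both times and by nearly the same amount (-1.08 ± 0.16 and -1.03 ± 0.16).

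Of the lists with at least 10 tested genes the largest median interaction, 2.08 (1.65 with values under 4 set to 4), was that of the replication-dependent histones, which package newly made DNA and are transcribed in S phase from clusters on chromosomes 6 and 1. Their messenger RNAs normally end in a stem-loop in place of a poly(A) tail, and the primer used for labelling is not given in the sources used here, so whether these levels are of transcripts with or without a tail cannot be told apart. Of 13 tested, 10 moved to a higher effect and none to a lower one, against 7.14% of all tested genes called higher. The median effect was 0.91 at 24 h and 3.11 at 48 h. Their median change between the times was 0.01 in the control cultures, with none called, and 2.16 at the high dose, with 12 called higher. A further 25 histone genes with a probe set did not pass the filter on low levels, and those that passed include genes above 4 only at the high dose, so the count is not one over all histone genes.

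H1-2, a linker histone, stood at 5.06, 5.74 and 5.74 against 6.51, 6.70 and 6.07 at 24 h and at 4.97, 5.73 and 5.73 against 8.87, 9.2 and 9.45 at 48 h. High dose arrays were above control arrays at both times. The effect went from 0.91 ± 0.24 to 3.69 ± 0.24 (interaction 2.78 ± 0.34, adjusted p = 0.00018). H3C2, a core histone H3 gene, was at background on the 9 other arrays and at 6.45, 7.03 and 7.4 at the high dose at 48 h, at least 7.77-fold above control (interaction 3.82 ± 0.38, 2.96 with values under 4 set to 4, adjusted p = 2.9e-05). H2BC4, a histone H2B gene, was at background in all control cultures, at 4.74, 5.69 and 3.65 at the high dose at 24 h and at 7.62, 8.03 and 7.02 at 48 h, at least 11.8-fold above control. Its effect at 24 h was not called (adjusted p = 0.0684) and was called without replicate 3 of the 24 h high dose cultures (0.0145), with the block (0.0137), in all 36 arrays (0.0248) and in the 12 arrays alone (0.0461). The probe sets of near-identical histone genes may share transcripts, so the individual members are less certain than the group.

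The upstream sequence of genes of both groups is shown because the histone genes share sequence features that the selection did not use, and that of IL11, FOS and EGR1 to set beside them. The 250 bases before the RefSeq transcription start (assembly GRCh38.p14) were searched on both strands for AP-1 sites (TGANTCA), cyclic AMP response elements or CRE (TGACGTCA), CCAAT boxes (CCAAT), the TATA box (searched as TATAAA) and the CArG box, the site of serum response factor. Each is printed 5′ to 3′ on the strand of its gene, with matches in capitals.
H3C2: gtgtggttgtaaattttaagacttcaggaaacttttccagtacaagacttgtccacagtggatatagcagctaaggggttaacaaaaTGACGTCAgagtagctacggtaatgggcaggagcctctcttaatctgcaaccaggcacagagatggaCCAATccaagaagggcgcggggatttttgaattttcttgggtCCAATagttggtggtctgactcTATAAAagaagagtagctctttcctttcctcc
H2BC4: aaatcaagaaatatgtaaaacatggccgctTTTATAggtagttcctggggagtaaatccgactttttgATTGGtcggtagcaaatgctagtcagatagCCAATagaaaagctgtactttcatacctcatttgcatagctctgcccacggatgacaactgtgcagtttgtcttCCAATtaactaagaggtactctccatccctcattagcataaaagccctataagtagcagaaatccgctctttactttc
H1-2: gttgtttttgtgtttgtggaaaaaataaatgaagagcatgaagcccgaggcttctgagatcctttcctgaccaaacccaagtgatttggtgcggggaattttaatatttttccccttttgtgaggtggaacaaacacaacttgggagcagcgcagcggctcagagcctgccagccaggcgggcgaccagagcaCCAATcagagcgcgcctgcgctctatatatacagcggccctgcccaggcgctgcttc
IL11: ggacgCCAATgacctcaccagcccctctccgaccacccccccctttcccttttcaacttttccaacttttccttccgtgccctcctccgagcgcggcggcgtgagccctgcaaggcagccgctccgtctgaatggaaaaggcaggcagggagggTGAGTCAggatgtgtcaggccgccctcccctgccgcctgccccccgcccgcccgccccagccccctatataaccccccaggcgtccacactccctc
FOS: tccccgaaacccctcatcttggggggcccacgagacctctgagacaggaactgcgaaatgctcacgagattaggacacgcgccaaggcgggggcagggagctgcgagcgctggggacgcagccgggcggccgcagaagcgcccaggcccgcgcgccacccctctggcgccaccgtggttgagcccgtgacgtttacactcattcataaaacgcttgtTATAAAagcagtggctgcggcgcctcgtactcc
EGR1: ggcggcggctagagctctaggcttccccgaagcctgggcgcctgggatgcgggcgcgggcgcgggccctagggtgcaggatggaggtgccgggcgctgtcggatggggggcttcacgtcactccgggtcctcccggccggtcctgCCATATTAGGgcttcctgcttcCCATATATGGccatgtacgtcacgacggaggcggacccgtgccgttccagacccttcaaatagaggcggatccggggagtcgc

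H3C2 (chr6:26032100-26032349 (minus strand)) held a CRE, a pair of CCAAT boxes and a TATA box, H2BC4 (chr6:26123927-26124176 (minus strand)) held 3 CCAAT boxes, and H1-2 (chr6:26056471-26056720 (minus strand)) held 1 CCAAT box. The capitals TTTATA in H2BC4 are a match to TATAAA on the reverse strand, 220 to 215 bases before the start, and are not read as a TATA box. IL11 (chr19:55370464-55370713 (minus strand)) held an AP-1 site and a CCAAT box, FOS (chr14:75278578-75278827 (plus strand)) held a TATA box, and EGR1 (chr5:138465229-138465478 (plus strand)) held a pair of CArG boxes. Of the 13 tested histone genes 12 (92.3%) held a CCAAT box, against 35.7% of the 9086 tested genes with a sequence. A match to TATAAA on either strand, anywhere in the window, was in 11 (84.6%), against 5.15%. The reverse match of H2BC4 is among the 11, so fewer held a match that is read as a TATA box. Among growing higher genes 8.26% held a CRE, against 3.02% of all tested and 3.52% of late higher genes, and AP-1 sites were in 2.75% of growing higher, 4.58% of late higher and 3.51% of all tested genes. Of the 19 immediate early genes with a sequence 3 held a CRE, 2 a CArG box and 0 an AP-1 site. A match is a description of letters in this window.

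RNA45SN5, the precursor of the large ribosomal RNAs, was in the growing program. It stood at 6.05, 6.20 and 6.48 against 9.11, 8.51 and 8.28 at 24 h and at 6.30, 6.53 and 6.48 against 12.13, 11.43 and 12.18 at 48 h. High dose arrays were above control arrays at both times, and the 48 h high dose arrays above those at 24 h. The effect was 2.39 ± 0.32 and then 5.48 ± 0.32 (interaction 3.08 ± 0.45, adjusted p = 0.00055); its 1 other probe set gave the same call, and ribosomal RNA genes are near-identical copies, so no single copy is measured. Of 30 ribosome biogenesis genes 6 moved to a higher and 1 to a lower effect, beside 7.14% and 13.6% of all tested genes, and 15 and 1 did with the block. Their median effect was 0.28 at 24 h and 0.54 at 48 h. POLR1C, a subunit of RNA polymerases I and III, had effects of 0.32 and 1.58 (interaction 1.26 ± 0.27, adjusted p = 0.00515, 0.0925 in all 36 arrays), the first called only with the block (0.0201).

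The effect on mitotic genes also moved upward, but in a different way. Of 48 tested, 20 moved to a higher effect and none to a lower one, beside 7.14% and 13.6% of all tested genes. At 24 h 28 were lower and 1 higher at the high dose (median -0.46), beside 24.0% and 27.4% of all tested genes. At 48 h 16 were lower and 14 higher (median -0.18), beside 35.1% and 30.9%. The control cultures moved as well: 12 mitotic genes were lower in them at 48 h than at 24 h and none higher (median -0.49), while at the high dose 4 were higher and 7 lower (median -0.02; 5 and 5 after quantile normalisation). With the block 35 were lower in the controls.

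MKI67, the proliferation antigen Ki-67, stood at 11.54, 11.58 and 11.87 and then 10.77, 10.82 and 11.28 in the control cultures. At the high dose it stood at 11.63, 11.44 and 11.49 and then 12.04, 12.18 and 12.25. The groups overlapped at 24 h and were apart at 48 h. The control level fell by 0.71 (adjusted p = 0.0236) and the high dose level rose by 0.64 (adjusted p = 0.0037), an interaction of 1.34 ± 0.20 (adjusted p = 0.00061). Of its 3 other probe sets 1 gave the same call and 1 the opposite one, and the call was lost over their mean (0.39, adjusted p = 0.0734). AURKB, a kinase of the chromosomal passenger complex, had effects of 0.21 ± 0.20 and 1.34 ± 0.20 (adjusted p = 0.0105), with a control change of -0.76 and a high dose change of 0.38, neither called (adjusted p = 0.0655 and 0.159). CCNB1, the mitotic cyclin B1, had effects of -1.44 ± 0.13 and -0.45 ± 0.13 (interaction 0.99 ± 0.19, adjusted p = 0.0026), with the later effect not called in all 36 arrays (0.057). Most of that interaction was a fall of the control level by 0.71 (adjusted p = 0.0188), and the high dose change of 0.29 was not called (adjusted p = 0.117).

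**Figure D3:**
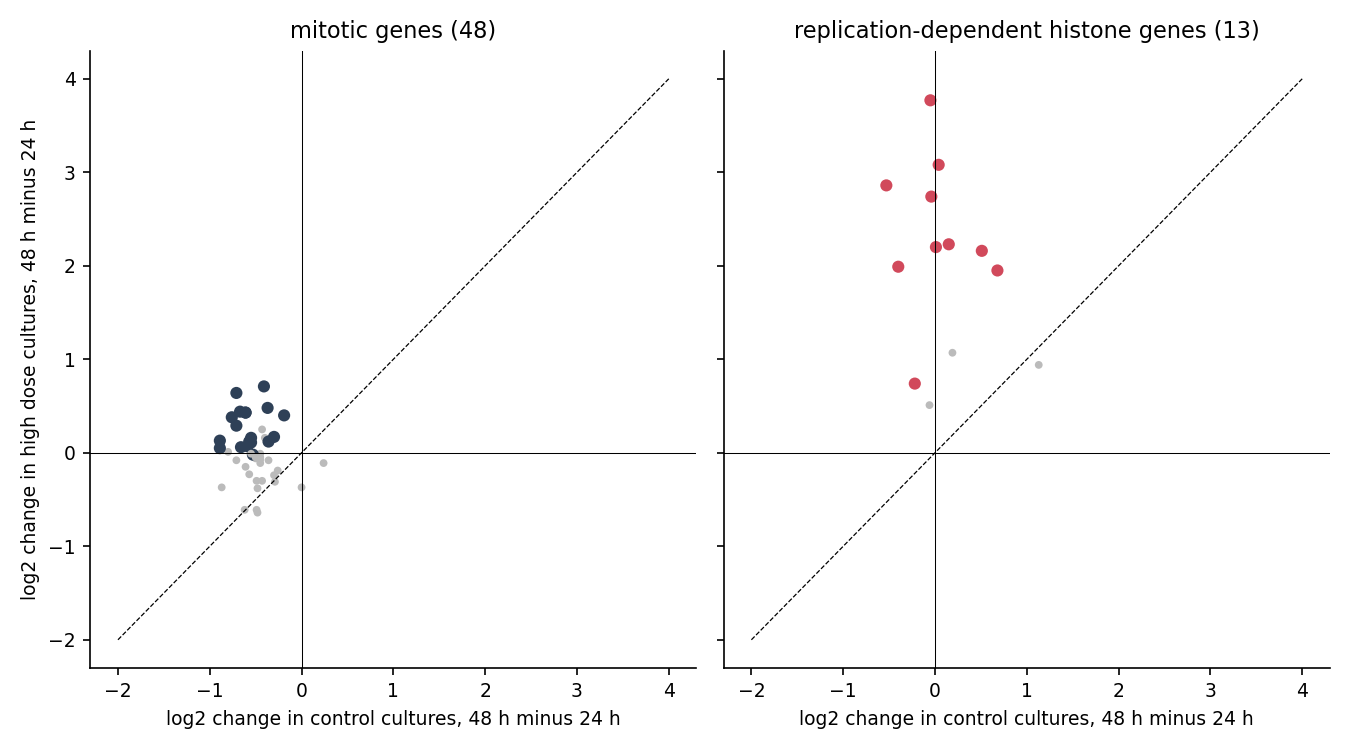
Log2 change from 24 h to 48 h in control cultures (horizontal) and high dose cultures (vertical), 1 point per gene, for 48 mitotic genes and 13 replication-dependent histone genes; large coloured points are genes whose interaction was called and the dashed line marks equal change. Called mitotic genes lie left of zero, with a median control change of -0.49 over the list, and called histone genes lie above the dashed line, with a median high dose change of 2.16 over the list.

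Of 40 tested DNA replication genes 4 moved to a higher and 4 to a lower effect, and 12 and 6 did with the replicate block. The 4 and 4 were 20% of the list, near the 20.7% of all tested genes. PRIM1, the catalytic subunit of primase, was at 10.08, 10.08 and 10.15 against 9.94, 10.09 and 10.14 at 24 h and at 10.10, 10.35 and 10.26 against 9.09, 9.18 and 9.21 at 48 h. The groups overlapped at 24 h and not at 48 h, and the interaction was -1.03 ± 0.15 (adjusted p = 0.00049). CCND1, cyclin D1, went from 0.41 ± 0.35 to 2.36 ± 0.35 (adjusted p = 0.0135), a call that its 1 other probe set did not give. CCNE1, cyclin E1, had effects of 0.82 ± 0.13 and 1.72 ± 0.13 (adjusted p = 0.00434), of which -0.72 was a called change in the control cultures (adjusted p = 0.0188) and 0.18 a change at the high dose that was not called.

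As deposited, more late genes were lower (645) than higher (345), a direction that scaling turned: there were 471 higher and 495 lower late genes after quantile normalisation and 493 higher and 439 lower after centring. Late lower genes had a median effect of -0.02 at 24 h and -0.96 at 48 h, and growing lower genes of -0.78 and -1.85. In 576 of the 645 late lower genes (89.3%) the change at the high dose was larger than that in the control cultures. The share was 77.1% of late higher genes. Over all programs it ran from 47.8% (waning lower) to 90.5% (reversed lower). It was 55.7% of the 2652 genes in none of the classes. SLC40A1, the iron exporter ferroportin, stood at 7.61, 7.28 and 6.93 against 6.87, 6.81 and 6.39 at 24 h and at 8.07, 7.95 and 7.16 against 4.89, 3.44 and 3.51 at 48 h. The groups did not overlap at either time and were far apart only at 48 h. The effect was -0.58 ± 0.38, not called except with the block (adjusted p = 0.0365), and then -3.78 ± 0.38 (interaction -3.20 ± 0.54, adjusted p = 0.00142).

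INHBE and BLNK had late lower effects in which the control level was higher at 48 h than at 24 h. INHBE, a subunit of the activin family, stood at 6.37, 6.80 and 5.52 against 6.10, 6.66 and 5.42 at 24 h and at 8.26, 8.58 and 7.22 against 5.10, 5.66 and 3.99 at 48 h. Its control level was 1.79 higher at 48 h and its high dose level 1.14 lower. Neither was called alone without the block (adjusted p = 0.0635 and 0.071), though in every replicate number the control level rose and the high dose level fell. The interaction was -2.93 ± 0.65 (adjusted p = 0.00616). BLNK, a signalling adaptor known from B cells, stood at 2.92, 4.33 and 2.72 in the control cultures at 24 h and at 7.28, 7.49 and 6.11 at 48 h, while all 6 high dose arrays were at background. The control level rose by 3.64 (adjusted p = 0.0188), the high dose level did not leave background, and the effect at 48 h was at least 7.78-fold lower.

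Growing lower genes included regulators of signalling and of the endoplasmic reticulum. CBLB, a ubiquitin ligase that restrains receptor signalling, stood at 7.37, 8.04 and 7.50 against 6.53, 6.82 and 5.89 at 24 h and at 7.63, 8.17 and 7.77 against 4.34, 3.66 and 2.91 at 48 h. It was lower on every high dose array at both times (interaction -2.99 ± 0.47, adjusted p = 0.00097), a call that its 1 other probe set did not give. PKIG, an inhibitor of cyclic AMP-dependent protein kinase, had effects of -1.71 ± 0.42 and -4.67 ± 0.42 (adjusted p = 0.00389). ATF6, a membrane-bound factor of the unfolded protein response, stood at 8.72, 8.88 and 8.63 against 7.66, 7.66 and 7.59 and then at 9.18, 9.23 and 8.75 against 6.46, 5.55 and 5.95. All high dose arrays were below all control arrays, and the interaction of -1.96 ± 0.34 (adjusted p = 0.00183) was called on its 3 other probe sets too.

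Other genes of the endoplasmic reticulum went both ways. Of 23 tested 4 moved to a higher and 3 to a lower effect, beside 7.14% and 13.6% of all tested genes. CRELD2, a secreted factor of endoplasmic reticulum stress, went from 0.14 ± 0.11 to 1.02 ± 0.11 (adjusted p = 0.002). INSIG1, which retains the SREBP regulators of cholesterol synthesis in that membrane, had effects of -1.32 ± 0.18 and -2.42 ± 0.18 (adjusted p = 0.00804), with a control change of 0.71 and a high dose change of -0.38, neither called (adjusted p = 0.0593 and 0.124). Of 18 cholesterol synthesis genes 2 moved higher and 2 lower (4 and 4 with the block). The 2 and 2 were 22.2% of the list, near the 20.7% of all tested genes. In the same list 9 were sustained lower, beside 15.9% of all tested genes, with medians of -0.52 at 24 h and -0.46 at 48 h. VLDLR, a lipoprotein receptor, went from -0.64 ± 0.18 to -1.92 ± 0.18 (adjusted p = 0.00369). Of 18 claudins, cadherins and junction genes none moved higher and 3 (16.7%) lower, beside 13.6% of all tested genes, and 7 moved lower with the block; 8 were sustained lower, with medians of -0.48 and -0.82.

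The early and waning programs held responses that had gone or shrunk by 48 h. Early higher genes had a median effect of 0.73 at 24 h and -0.08 at 48 h, and waning higher genes of 1.59 and 0.67. These counts depended on single arrays: the 310 early genes became 195 without replicate 3 of the 24 h controls and 191 without replicate 2 of the 24 h high dose cultures. The 115 waning genes became 76 and 57 without replicates 1 and 3 of the 24 h controls, 54 and 56 without replicates 1 and 2 of the 48 h controls, 70 and 54 without replicates 1 and 2 of the 24 h high dose cultures and 67 and 61 without replicates 1 and 3 of the 48 h high dose cultures. With the replicate block there were 583 early and 276 waning genes. The splits by direction also moved with scaling: 217 higher and 93 lower early genes as deposited became 162 and 126 after quantile normalisation, and after centring 137 were lower, slightly more than were higher. The 92 higher and 23 lower waning genes became 69 and 37 after quantile normalisation and 49 and 40 after centring.

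AHRR, the repressor of the aryl hydrocarbon receptor and itself one of its targets, was an early gene. It was at background on all 6 control arrays, at 4.64, 5.34 and 5.33 at the high dose at 24 h and at 2.55, 2.27 and 2.42 at 48 h. The 3 high dose arrays at 24 h were above the other 9. It was at least 2.15-fold above control at 24 h, and its interaction was -2.68 ± 0.23 as deposited and -1.10 with values under 4 set to 4 (adjusted p = 1.2e-05). Of 7 tested genes of that receptor none moved to a higher and 3 to a lower effect, beside 7.14% and 13.6% of all tested genes. TIPARP, another target, was lower at both times and grew, with effects of -1.69 ± 0.21 and -2.98 ± 0.21 (adjusted p = 0.00768).

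HMOX1, the NRF2 target heme oxygenase, stood at 7.96, 8.20 and 8.39 against 9.24, 8.90 and 9.74 at 24 h and at 7.76, 7.77 and 8.23 against 7.93, 7.65 and 7.88 at 48 h. The groups were apart at 24 h and overlapped at 48 h. The effect was 1.11 ± 0.22 and then -0.10 ± 0.22 (interaction -1.21 ± 0.31, adjusted p = 0.0139, 0.062 in all 36 arrays). NQO1, a quinone reductase of the same pathway, was higher at both times by 0.64 ± 0.16 and 0.72 ± 0.16, the first not called in all 36 arrays (adjusted p = 0.0775). SLC7A11, the cystine importer, went from 0.27 ± 0.44 to -1.95 ± 0.44 (interaction -2.21 ± 0.62, adjusted p = 0.0219). Its call was lost without replicate 2 of the 48 h controls (0.0567), without replicate 2 of the 24 h high dose cultures (0.0592) and with no filter (0.052).

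Of 23 tested NRF2 target genes none moved to a higher and 5 to a lower effect, and 2 and 10 did with the block. The 5 were 21.7% of the list, beside 13.6% of all tested genes that moved lower and 7.14% that moved higher. Their counts were 16 higher and 1 lower at 24 h, beside 27.4% and 24.0% of all tested genes. At 48 h they were 11 and 4, beside 30.9% and 35.1%, and the median effect was 0.58 and then 0.20. After centring, 1 moved higher and 3 lower. Of 28 genes of the ATF4 amino acid stress response 1 moved higher and 7 lower (2 and 4 after centring, 4 and 11 with the block), with medians of 0.42 and 0.19; DDIT3, the factor CHOP, was sustained with effects of 1.39 ± 0.18 and 1.12 ± 0.18, while its level rose with time in the control cultures by 1.04 (adjusted p = 0.0147) and at the high dose by 0.77 (adjusted p = 0.00495).

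Interferon-stimulated genes, which encode antiviral proteins, split between programs. Of 26 tested 4 moved to a higher and 9 to a lower effect (4 and 6 after quantile normalisation, 4 and 7 after centring), beside 7.14% and 13.6% of all tested genes. Their counts were 13 higher and 2 lower at 24 h, beside 27.4% and 24.0% of all tested genes. At 48 h they were 10 and 10, beside 30.9% and 35.1%, with a median effect of 0.68 and then 0.10. IFIT1 stood at 7.73, 8.83 and 8.13 against 8.95, 9.65 and 8.58 at 24 h and at 7.59, 8.68 and 7.75 against 6.16, 7.20 and 7.22 at 48 h. The groups overlapped at 24 h and not at 48 h, and the interaction was -1.97 ± 0.52 (adjusted p = 0.0161). Its effect at 48 h was not called without replicate 2 of the 48 h controls (0.0766) or replicate 1 of the 48 h high dose cultures (0.0755). Its effect at 24 h was called with the block (0.00421), without replicate 2 of the 24 h controls (0.0285), without replicate 3 of the 24 h high dose cultures (0.0419) and in all 36 arrays (0.0411).

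IFI6 and IFI35 went upward instead. IFI6 grew from 0.62 ± 0.16 to 2.48 ± 0.16 (adjusted p = 0.0002). IFI35 stood at 7.61, 7.55 and 7.79 against 4.6, 4.18 and 5.02 at 24 h and at 7.34, 7.20 and 7.34 against 6.13, 5.79 and 5.77 at 48 h. It was lower on every high dose array at both times and less so at 48 h (interaction 1.66 ± 0.34, adjusted p = 0.0045).

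DSCAML1, a cell adhesion molecule, and DDX19B, a helicase of messenger RNA export, rose at 24 h only. DSCAML1 stood at 5.26, 4.83 and 4.13 against 7.70, 7.91 and 6.70 at 24 h and at 6.26, 5.59 and 5.64 against 5.85, 5.85 and 5.60 at 48 h. The groups were apart at 24 h and overlapped at 48 h (interaction -2.76 ± 0.57, adjusted p = 0.00438), with a high dose fall by 1.67 (adjusted p = 0.0062) and a control change of 1.09 that was not called (adjusted p = 0.183). DDX19B had effects of 2.10 ± 0.36 and -0.49 ± 0.36 (adjusted p = 0.00337). At the low dose the effects were 2.30 and -0.13 for DSCAML1 and 1.79 and 0.23 for DDX19B, and the change with time was not called different between doses (-0.33 ± 0.57 and -1.03 ± 0.51).

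A small set of genes was called in opposite directions at the 2 times. There were 34 that were lower at 24 h and higher at 48 h and 84 the other way, with median effects of -0.50 and 0.60 in the first set and 0.54 and -0.55 in the second. After quantile normalisation there were 45 and 65, and after centring 49 and 49. The total was 75 without replicate 3 of the 24 h controls, 77 without replicate 2 of the 24 h high dose cultures and 324 with the block. The high dose level itself rose in 29 of the 34 and fell in 80 of the 84.

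ZSCAN31, a zinc finger protein, stood at 9.13, 9.67 and 9.2 against 10.20, 10.61 and 10.18 at 24 h and at 9.64, 9.89 and 9.65 against 8.40, 8.26 and 8.15 at 48 h. The high dose arrays were all above control at 24 h and all below it at 48 h. The effect was 1.00 ± 0.16 and then -1.46 ± 0.16 (interaction -2.45 ± 0.22, adjusted p = 1.4e-05). PIK3C2B, a class II phosphoinositide kinase, had effects of 0.84 ± 0.24 and -1.74 ± 0.24 (adjusted p = 0.00032), and PRRG4, a membrane protein with a Gla domain, of 1.00 ± 0.23 and -1.09 ± 0.23 (adjusted p = 0.00087).

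SLC26A2, a sulfate transporter, stood at 10.24, 10.77 and 10.4 against 9.09, 9.64 and 9.06 at 24 h and at 9.24, 9.55 and 9.53 against 10.22, 10.48 and 10.02 at 48 h. The groups changed places without overlap at either time. Its effect was -1.21 ± 0.20 and then 0.80 ± 0.20 (adjusted p = 0.00043), made of a fall of the control level by 1.03 (adjusted p = 0.02) and a rise of the high dose level of 0.98 (adjusted p = 0.00217). CXCL8, the neutrophil attractant interleukin-8, stood at 12, 12.58 and 12.52 against 11.03, 11.43 and 11.08 at 24 h and at 11.66, 11.81 and 12.58 against 12.55, 12.87 and 12.90 at 48 h. The groups were apart at 24 h and overlapped at 48 h. Its interaction was 1.94 ± 0.35 (adjusted p = 0.00211), and its effect of 0.76 ± 0.25 at 48 h was not called without replicate 1 or 2 of the 48 h controls (0.072 and 0.0558) or in all 36 arrays (0.124).

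Genes of the p53 pathway were spread over the programs. Of 26 tested 5 moved to a higher and 6 to a lower effect (8 and 8 with the block), beside 7.14% and 13.6% of all tested genes. Their median effect was 0.14 at 24 h and 0.18 at 48 h. CDKN1A, the cell cycle inhibitor p21, stood at 9.12, 9.40 and 9.26 against 10.94, 10.74 and 10.80 at 24 h and at 9.11, 8.58 and 9.45 against 11.11, 10.93 and 11.15 at 48 h. High dose arrays were above control at both times, and the interaction of 0.45 was not called (95% interval -0.12 to 1.02). GADD45A, a stress and repair factor, grew from 1.81 ± 0.20 to 3.05 ± 0.20 (adjusted p = 0.00677), and PMAIP1, the pro-apoptotic protein NOXA, from 1.76 ± 0.26 to 3.13 ± 0.26 (adjusted p = 0.0156). TP53I3, a quinone oxidoreductase, was reversed with effects of -0.97 ± 0.17 and 0.77 ± 0.17 (interaction 1.74 ± 0.24, adjusted p = 0.0004), made of a control fall by 0.73 (adjusted p = 0.0495) and a high dose rise of 1.01 (adjusted p = 0.00061). MDM2, which marks p53 for degradation, had effects of 0.24 ± 0.15 and -0.55 ± 0.15 (interaction adjusted p = 0.0175), a call lost in all 36 arrays (0.146) and over the mean of its probe sets (0.126), as was that of the effect at 48 h (0.0721 and 0.267).

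The sustained program was the largest of those defined. Its 1861 higher genes had median effects of 1.00 at 24 h and 1.11 at 48 h, and its 1740 lower genes of -1.02 and -1.20. The 95% interval of the interaction had a median half-width of 0.53 and 0.59, and it lay within 1 log2 unit of 0 for 1234 of the higher and 976 of the lower genes, so equal effects are bounded only to that extent. FGF18, a growth factor, stood at 4.13, 3.90 and 4.26 against 10.08, 9.78 and 9.78 at 24 h and at 3.77, 4.47 and 4.14 against 10.20, 9.89 and 9.67 at 48 h. The groups were far apart at both times, and the interaction was 0.01 with a 95% interval of -1.31 to 1.34. GCNA, a germ cell protein, had effects of 6.10 ± 0.27 and 5.88 ± 0.27.

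EXOC4, a subunit of the exocyst encoded by a very long gene, stood at 9.38, 9.16 and 9.14 against 3.08, 3.04 and 3.43 at 24 h and at 9.43, 9.40 and 9.13 against 3.95, 3.03 and 3.05 at 48 h. Every high dose array was at background, at least 37.5-fold below control at 24 h and at least 40.0-fold at 48 h. SYT1, a synaptic vesicle protein, was at least 45.3-fold lower at 24 h, and 1 of its 3 high dose arrays at 48 h was above background (5.23). Where the high dose level is at background a further fall by 48 h cannot be seen, so a missing interaction says little for these genes. Of 41 tested very long genes 36 were lower at 24 h and 38 at 48 h, beside 24.0% and 35.1% of all tested genes. In that list 34 were sustained lower, beside 15.9%, and 2 moved to a lower effect, or 8 with the block, beside 13.6% without it. Of 19 tissue-restricted genes 13 were sustained higher, beside 17% of all tested genes, and 1 moved higher and 2 lower (3 and 2 with the block), with medians of 5.25 and 5.80. Both lists were partly drawn from genes already known to move in these data, so their counts are not independent evidence of a direction.

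The remaining lists are given by their counts of interactions called higher and lower, beside 7.14% and 13.6% of all tested genes. Of 15 cytosolic heat shock genes, chaperones of protein folding, 4 moved higher and 0 lower (5 and 1 with the block), and their median effect was 0.02 at 24 h and 0.22 at 48 h. Of 26 TGF-beta, matrix and cytoskeleton genes 5 moved higher and 1 lower (9 and 5 with the block). The counts were 3 and 1 of 19 G1 cyclins and E2F factors (4 and 4 with the block), 2 and 0 of 13 BCL2 family genes (4 and 1), 0 and 1 of 21 nucleotide excision repair genes (1 and 1) and 3 and 3 of 27 recombination and Fanconi repair genes (8 and 7). They were 1 and 0 of 8 EGF family ligands and receptors (2 and 2 with the block), 1 and 2 of 10 proximal tubule genes (1 and 4), 3 and 4 of 35 Mediator and RNA polymerase II genes (7 and 8) and 2 and 1 of 41 oxidative phosphorylation genes (5 and 1). Of the tested markers of other cell types, none of 3 distal nephron, 4 fibroblast, 1 endothelial and 1 leukocyte genes was called. Of the fibroblast genes 1 was called higher after either scaling and 2 higher and 1 lower with the block, and the leukocyte gene FCER1G was called higher with the block.

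**Figure D4:**
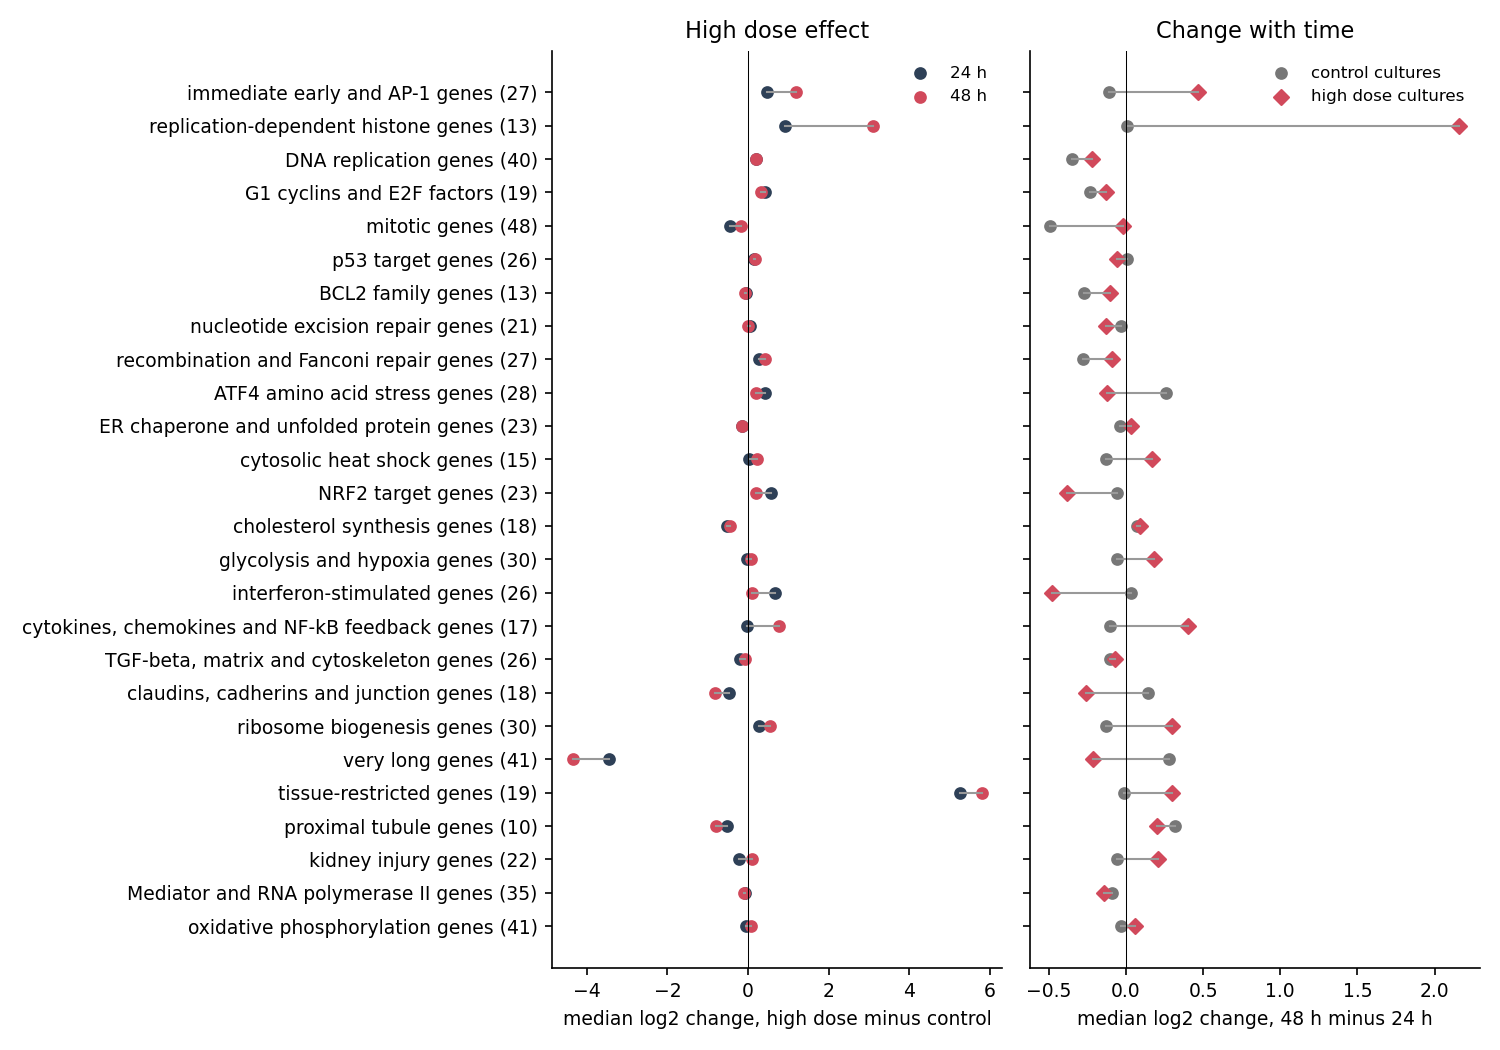
Median log2 change of gene lists with at least 10 tested members (number tested in brackets), on the left high dose minus control at 24 h and 48 h, on the right 48 h minus 24 h in control and high dose cultures. Histone genes moved most with time, from 0.91 to 3.11, while very long and tissue-restricted genes had large medians of 1 sign at both times.

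Whether the change with time belonged to the high dose was tested against the low dose, a contrast in which the control cultures cancel. The change from 24 h to 48 h differed between high and low dose for 409 genes (3.73%), 109 higher (0.993%) and 300 lower (2.73%) at the high dose. As with the interaction, scaling moved this balance: 301 genes were called after quantile normalisation and 258 after centring, with 48.5% and 50.4% higher against 26.7% as deposited. The count was 243 and 189 without replicates 1 and 2 of the 24 h high dose cultures, 244 without replicate 3 of the 48 h high dose cultures and 1822 with the block.

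Among the named genes the change with time was larger at the high dose for FOS (2.48 ± 0.50, or 2.61 with values under 4 set to 4, adjusted p = 0.0161), IL11 (4.82 ± 0.34, or 4.27 with values under 4 set to 4, adjusted p = 2.4e-06), SNAI1 (1.78 ± 0.27, or 2.48, adjusted p = 0.00282), H3C2 (3.47 ± 0.38, or 2.95, adjusted p = 0.00011) and RNA45SN5 (2.04 ± 0.45, adjusted p = 0.0228). At the low dose FOS had effects of -0.36 and 1.78 and RNA45SN5 of 1.01 and 2.05. The fall was larger at the high dose for AHRR (-2.52 ± 0.23, or -1.10 with values under 4 set to 4, adjusted p = 2.6e-05), HMOX1 (-1.49 ± 0.31, adjusted p = 0.0183) and ZSCAN31 (-1.45 ± 0.22, adjusted p = 0.00283). For HMOX1 the low dose effects were 0.80 and 1.08 beside the 1.11 and -0.10 of the high dose. HBEGF (0.43 ± 0.51), CCN2 (0.68 ± 0.40) and MKI67 (0.05 ± 0.20) were not called different between doses.

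Histone and mitotic genes differed again in this contrast. Of 13 histone genes 6 had a larger rise at the high dose and none a smaller one (7 and 0 after either scaling). Their median effects were 0.25 and 0.95 at the low dose beside 0.91 and 3.11 at the high dose. The genes that passed the filter include some above 4 only at the high dose. The direction of this count was therefore partly fixed by the filter, and it is not a count over all histone genes. Of 48 mitotic genes 16 changed downward relative to the low dose and none upward, with 7 after quantile normalisation, 4 after centring and 25 with the block. Their median effects were -0.31 and 0.69 at the low dose and -0.46 and -0.18 at the high dose.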

How the data were processed

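RNA of HK-2 cultures was measured on Affymetrix arrays with 54675 probe sets. The log2 expression values were deposited by the authors and made with GCRMA, per the submitters' processing notes; neither its version nor the set of arrays normalised jointly is given in the sources used here. A gene is its probe set with the highest mean over all 36 arrays, among 41091 probe sets with 1 symbol in GEO's platform annotation (1801 with several and 11721 with none were left out), and 10972 of 19775 genes had a value over 4 on at least 3 of the 18 arrays of Aa. The 18 arrays were fitted with group means in limma 3.58.1 (R 4.3.3, 12 residual degrees of freedom), two-sided, with Benjamini-Hochberg adjustment within each comparison over all tested genes. Effects are log2 differences with the standard error of the fit. The fit was tested on simulated data with independent noise and 100 changed genes of each of 2 sizes, and gave 6 false calls there.

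An "at least" fold sets the group that is at or under 4 on all 3 arrays at 4. The replicate numbers pair the samples: same-numbered arrays of different groups deviated together in all 18 pairs (r 0.27 to 0.60). In 36 pairs of different numbers r was -0.37 to -0.02. Levels were first centred on the mean of each group, which makes these r negative on average once the first are positive. They are therefore no separate contrast. A fit with the number as a block is given where it changed a call of a gene described or moved a count of interactions by over 1.5 times. For genes this covers the effects at 24 h and 48 h and the interaction. Single genes were not compared with the block for the change with time in control or high dose cultures or between doses. The members and the 32 gene lists were chosen with earlier results of these data known. Named genes are the largest of each program and direction with values under 4 set to 4 (5 late and growing, 3 in the others), from each list with at least 20% called, its 3 called genes of greatest change, and 9 further genes. Promoters are those of RefSeq, assembly GRCh38.p14, matched by Entrez gene ID. Alternatives tried were the block, quantile normalisation, centring, other filters and floors, the mean of probe sets, other sets of arrays, a trended and robust variance, and leaving out each array. The number of arrays limits the precision.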

Additional observations from a re-analysis of the deposited data

Results flagged for a closer look

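The high dose effect differed between 24 h and 48 h for 2276 genes by the test of the interaction, and the change with time differed between high and low dose for 409 genes by the test of that difference. Among the named genes called at both times in opposite directions, the test of the interaction picked out GINS4, a subunit of the replicative helicase (2.48), TM4SF4 (2.39), SLC26A2 (2.01), CXCL8 (1.94), TP53I3 (1.74), CENPA, the centromeric histone H3 variant (1.12), and NSDHL, an enzyme of cholesterol synthesis (1.03), which were lower at 24 h and higher at 48 h. PIK3C2B (-2.58), ZSCAN31 (-2.45), PRRG4 (-2.09) and MED13, a subunit of the Mediator kinase module (-1.12), were higher at 24 h and lower at 48 h.

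Some of these calls were lost under other settings. The effect of GINS4 at 24 h was -1.12 and fell to -0.07 over the mean of its probe sets (adjusted p = 0.65). TM4SF4 lost its effect at 24 h with no filter and when single arrays were left out, as without replicate 2 of the 24 h controls (-0.78, adjusted p = 0.216), and its effect at 48 h without replicate 1 of the 48 h controls (0.73, adjusted p = 0.197). The interaction of TM4SF4, with a control change of -1.82 and a high dose change of 0.56, was not called with no filter (0.0528) or without replicate 2 of the 24 h controls, replicate 1 of the 48 h controls or replicate 3 of the 48 h high dose cultures (0.0529, 0.0568 and 0.0561). That of GINS4 held a control change of -0.96 and a high dose change of 1.52. CENPA lost its effect at 24 h without replicate 3 of the 24 h controls (-0.23, adjusted p = 0.207), without replicate 2 or 3 of the 24 h high dose cultures (0.121 and 0.129), in all 36 arrays (0.097), in the 12 arrays alone (0.0608) and with no filter (0.0591). MED13 lost its effect at 24 h over the mean of its probe sets (0.02, adjusted p = 0.896) and without replicate 3 of the 24 h controls (0.0568). NSDHL lost its effect at 24 h without replicate 1 of the 24 h high dose cultures (-0.43, adjusted p = 0.0522), and CXCL8 its effect at 48 h without replicate 1 or 2 of the 48 h controls (0.58 and 0.66).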

How the results depend on the processing

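Of 95 named genes called in the interaction, 64 were called under all 22 alternatives, 0 reversed and 0 lost the call with the replicate block. Leaving out 1 array at a time gave 1540 to 2530 genes for the interaction, 4946 to 5674 for the effect at 24 h, 6622 to 7232 at 48 h, 2437 to 3313 for the high dose cultures with time, 17 to 550 for the control cultures and 189 to 568 for the difference between doses. The programs then held 684 to 1114 late, 468 to 839 growing, 3386 to 3770 sustained, 54 to 113 waning, 191 to 399 early and 75 to 145 reversed genes. The growing genes numbered 484, 476 and 468 without replicates 1, 2 and 3 of the 24 h controls and 477 without replicate 2 of the 24 h high dose cultures. The replicate block gave 4304 genes for the interaction, 5014 for the high dose cultures, 1792 for the controls, 1822 between doses, and 1624 growing, 583 early, 324 reversed and 276 waning genes; it changed no named interaction call other than that of ATF3. The control count was 68 in the 12 arrays alone and 243 with a trended, robust variance, and the difference between doses 258 after centring; the cause was not tested.

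Interactions that changed sign were all uncalled, with a main value between -0.22 and 0.19. They were FGF18 at -0.03 with values under 4 set to 4, -0.14 over the mean of probe sets and -0.16 to 0.19 with 1 array left out, SYT1 at -0.06 over the mean of probe sets and -0.84 to 0.71 with 1 array left out, EXOC4 at -0.09 with values under 4 set to 4 and -0.24 to 0.22 with 1 array left out, and, with 1 array left out, GCNA at -0.54 to 0.05, NQO1 at -0.02 to 0.21 and HAVCR1 at -0.08 to 0.12. Genes near background limit what can be seen: a fall below 4 has no size.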

Other observations

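Zinc finger genes of the ZNF family, DNA-binding proteins many of which repress transcription, were chosen as a group after their values were seen. Of 350 tested, 163 were higher and 23 lower at 24 h (median 0.39), beside 27.4% and 24.0% of all tested genes. At 48 h 150 were higher and 64 lower (median 0.25), beside 30.9% and 35.1%. Their effect moved higher for 17 and lower for 34, both shares below those of all tested genes (7.14% and 13.6%). With the replicate block 31 moved higher and 62 lower, beside 1700 and 2604 of all 10972 tested genes. By program 115 were sustained higher (17% of all tested genes were), 12 sustained lower, 11 growing higher, 6 growing lower, 5 late higher and 17 late lower (5.88% of all tested genes were).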
